A study of Arabidopsis thaliana with 16 samples.

Results

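The hda6 mutant of Arabidopsis thaliana was compared directly with the esant12 double mutant, gene by gene, across all 32548 genes of the expression table. The comparison set 2 libraries of hda6 against 2 of esant12, with the 2 libraries of Col-0, the wild-type control, given beside them. The filter and the spread behind each p-value came from all 16 libraries of the series. The hda6 plants are labelled hda6(-/-) and the esant12 plants esant1(-/-);esant2(-/-), with no allele or insertion line named. All seedlings were 14 days old and were grown on MS plates in long days, with a light period of 16 h (23 °C) and a dark period of 8 h (22 °C). Total RNA was read as single ends of 50 bp. Nothing in the labels says that replicate libraries stem from separately grown plants, so the p-values cover the spread between these samples only, which may be technical.

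HDA6 is a histone deacetylase of the RPD3 type. Such enzymes remove acetyl groups from histone tails, which is associated with repressed chromatin. In Arabidopsis HDA6 is known for keeping transposons, repeats and some genes silent, together with DNA methylation. The series title places RPD3-type deacetylases in several plant-specific complexes, and esant12 is one of its mutants named for proteins studied with them. The direct comparison asks which transcripts differ between loss of the enzyme and loss of the pair named ESANT1 and ESANT2.

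Depth was even. The deposited normalised read counts, turned back into whole reads, came to 19259579 and 19309833 reads in hda6, 19408428 and 19422323 in esant12 and 19493628 and 19522197 in wild type. Values below are normalised read counts per library in the order replicate 1 and replicate 2, and log2 differences are hda6 minus esant12 on log2 of the value plus 1, with the standard error. A gene was called at an adjusted p under 0.05 over the 20846 genes that reached a value of 10 in at least 2 libraries. Leaf markers (RBCS1A, LHCB1.1, CAB1 and RCA) summed to 711301 to 786817 in hda6 and 745924 to 784659 in esant12, and root markers (5 genes) to 1594 to 1675 and 1623 to 1635. Of the flower and pollen markers, 4 of 5 were found and summed to 21.3 to 23 in hda6 and 25.9 to 30.5 in esant12. The 4 seed markers summed to 40.5 and 4.98 in hda6 and 2.47 and 88.1 in esant12, so the libraries of each mutant differed in seed transcripts. Among genes reaching 50 in a genotype, those at least 2-fold apart between its replicates numbered 21 in hda6, 59 in esant12 and 49 in wild type.

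The HDA6 transcript itself did not separate the genotypes. HDA6 (AT5G63110, chromosome 5, 25315506 to 25318347 in TAIR10.1) stood at 519 and 450 in hda6, 544 and 519 in esant12 and 430 and 425 in wild type. The log2 difference was -0.14 ± 0.08 (adjusted p = 0.27). The transcript level therefore does not check the hda6 label. The reference annotation pairs no gene with the names ESANT1 or ESANT2, so these were not read under those names.

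The differences were lopsided in size. In hda6, 2363 genes were higher than in esant12 (11.3% of those tested) and 1933 were lower (9.27%). Of the higher genes 34.9% differed by at least 2-fold, against 4.76% of the lower ones. That left 824 genes higher by at least 2-fold (3.95% of those tested) and 92 lower (0.441%). Of the 824, 291 had an esant12 mean under 5, and of the 92, 18 had an hda6 mean under 5. For such genes the size of the difference depends on the 1 added to each value. The median log2 difference was 0.67 among the higher genes and -0.34 among the lower ones, and -0.01 over all genes tested. With DESeq2 1.42.0 the calls were 1395 higher and 852 lower, and the 2-fold counts 564 and 41. Without 1 library the 2-fold counts ran from 470 (without hda6 replicate 2) to 741 higher and from 56 (without esant12 replicate 1) to 74 lower.

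**Figure D1:**
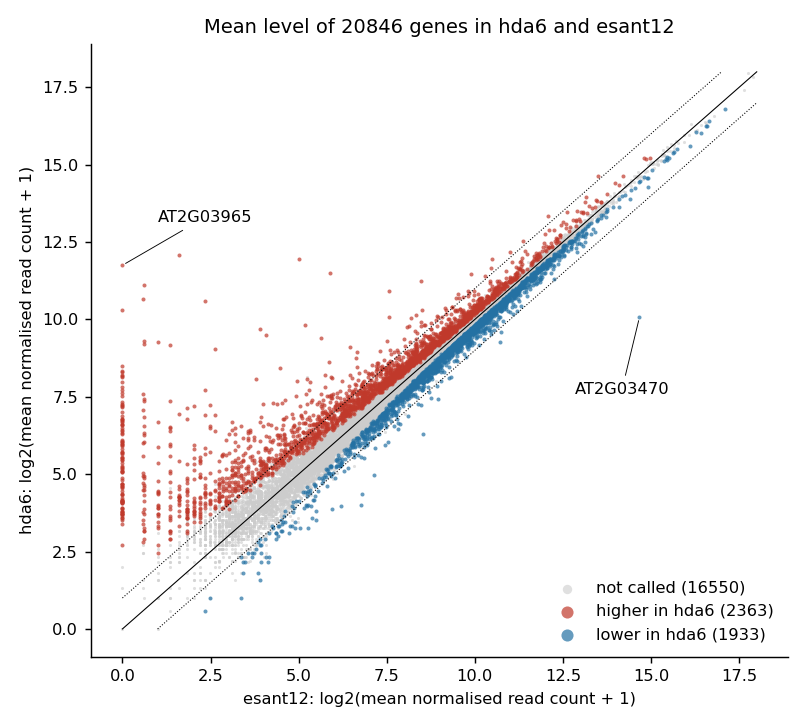
Mean level of each of the 20846 tested genes, as log2 of the mean normalised read count plus 1, in esant12 (horizontal axis) and hda6 (vertical axis), with called genes in red (higher in hda6) and blue (lower in hda6), the line of equal level solid and 2-fold lines dotted. A column of red points rises at the left edge, where esant12 is at or near 0, with no such set of blue points along the bottom, and AT2G03470 stands alone at the lower right.

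Wild type was placed beside both mutants. Among the 824 genes higher by at least 2-fold, the wild-type mean was nearer to esant12 for 542 (65.8%), against 47.7% of all tested genes. It lay between the 2 mutants for 497 (60.3%). Among the 92 lower genes it was nearer to esant12 for 47 (51.1%) and lay between the 2 mutants for 75 (81.5%), against 30.9% of all tested genes. These are descriptions, since the genes were chosen on values of both mutants. The comparison of hda6 with wild type called 2343 higher and 2609 lower genes. That of esant12 called 2402 and 2990, and both share the same 2 wild-type libraries.

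One group was a set of genes off in esant12 and on in hda6. With off meaning a value under 5 in both libraries and on meaning at least 20 in both, 121 genes (0.372% of the table) were off in esant12 and on in hda6, and 0 were off in hda6 and on in esant12. In hda6 their means ran from 21.1 to 4324 with a median of 64.5, and 38 reached 100 in both libraries. All 121 passed the filter, as their hda6 values required, and all were called, so nothing is read from those calls. A further 317 genes had at least 10 in both hda6 libraries and under 10 in both esant12 libraries without meeting the limits. In bulk RNA, transcription in few cells and a low level in many cannot be told apart.

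Most of the 121 were also off in the wild type. Values were under 5 in both wild-type libraries for 108 of them, no wild-type read was found for 63 and no esant12 read for 65. In 77 of the 121, all 14 libraries other than those of hda6 were under 5. At least 20 in both libraries was seen for 6 of the genes in wild type, 2 in arid14, 3 in sant1234, 3 in hda19, 3 in mbd124 and 2 in rxt3.

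**Figure D2:**
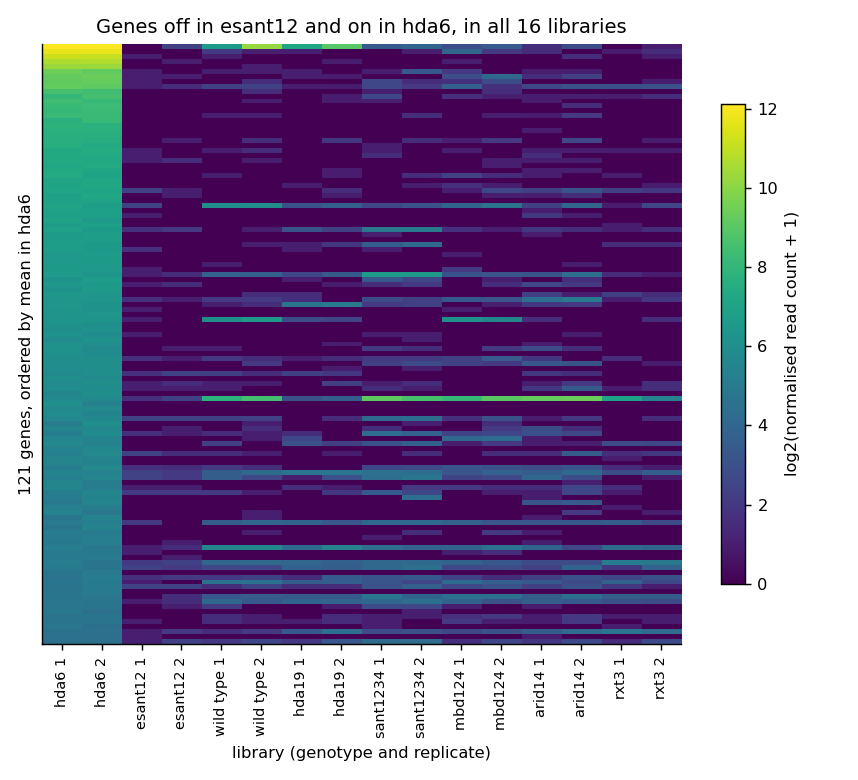
Level of the 121 genes off in esant12 and on in hda6 (rows, ordered by mean in hda6) in all 16 libraries (columns), as log2 of the normalised read count plus 1. The hda6 columns are filled from top to bottom while most rows are dark in every other genotype, and a few rows are also bright in wild type, hda19, sant1234, mbd124, arid14 or rxt3.

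The bases just upstream of 4 genes higher in hda6 are printed here. SDC and QQS are known for ties to DNA methylation, whose main target in plants is cytosine followed by guanine. Whether AT2G03965 and AT5G41660 are tied to it was not tested. Each is the 250 bases before the annotated start in the RefSeq TAIR10.1 genome, on the plus strand, 5′ to 3′, with CG in capitals. They lie at chr2:1251260-1251509 for AT2G03965, chr5:16656458-16656707 for AT5G41660, chr2:7681912-7682161 for SDC and chr3:12348797-12349046 for QQS.
AT2G03965: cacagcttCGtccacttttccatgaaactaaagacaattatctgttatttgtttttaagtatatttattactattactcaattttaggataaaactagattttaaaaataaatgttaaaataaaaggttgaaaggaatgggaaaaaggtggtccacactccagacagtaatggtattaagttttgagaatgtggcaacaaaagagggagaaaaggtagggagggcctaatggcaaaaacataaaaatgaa
AT5G41660: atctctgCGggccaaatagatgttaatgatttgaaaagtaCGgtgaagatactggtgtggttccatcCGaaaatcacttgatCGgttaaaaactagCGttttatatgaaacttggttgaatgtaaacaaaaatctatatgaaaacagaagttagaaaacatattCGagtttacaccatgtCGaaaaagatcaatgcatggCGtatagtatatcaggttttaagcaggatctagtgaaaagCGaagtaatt
SDC: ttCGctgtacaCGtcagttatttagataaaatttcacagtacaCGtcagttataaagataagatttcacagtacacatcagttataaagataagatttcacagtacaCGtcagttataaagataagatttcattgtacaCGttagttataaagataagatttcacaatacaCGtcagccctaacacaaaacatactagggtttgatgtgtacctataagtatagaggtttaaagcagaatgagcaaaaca
QQS: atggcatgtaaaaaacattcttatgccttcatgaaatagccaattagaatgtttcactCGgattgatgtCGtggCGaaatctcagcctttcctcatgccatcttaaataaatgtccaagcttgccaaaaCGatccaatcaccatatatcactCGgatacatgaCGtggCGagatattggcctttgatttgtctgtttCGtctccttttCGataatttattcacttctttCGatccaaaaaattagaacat
The windows hold 1 CG in AT2G03965, 9 in AT5G41660, 6 in SDC and 10 in QQS. In SDC a word of 21 bases occurs 4 times, the tandem repeats for which this gene's promoter is known. CG number did not set the 121 genes apart: their median was 5 per window, as it was over all tested genes, and it was 4 over the 10198 genes under 5 in all 16 libraries. No methylation was measured in these samples.

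Several of the highest of the 121 genes were uncharacterized or non-coding loci. AT2G03965 (chromosome 2, 1251510 to 1252989) stood at 3369 and 3521 in hda6, at 0 in both esant12 libraries and at 2.99 and 0.999 in wild type. With 6845 reads in hda6 against 0, and 3 reads per library taken as the floor, it was at least 1141-fold higher. A non-coding RNA gene that overlaps it, AT2G04655, was at 152 and 170 in hda6 and 0 in both esant12 libraries, and reads of such overlapping genes cannot be told apart where the strand setting is not given. In all, 5 of the 121 overlap another of the 121, and 19 overlap some gene of the table.

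AT5G41660 (chromosome 5, 16656708 to 16658405), also uncharacterized, stood at 1239 and 1264 in hda6 and at 0 in both esant12 libraries. It was at least 414-fold higher (2486 reads against 0). AT2G15555, a non-coding RNA gene on chromosome 2 (6785904 to 6786976), stood at 2289 and 2119 in hda6 and 1.03 and 0 in esant12. Its ratio of reads, 4377 to 1, was 4407 with a 95% exact counting interval of 790 to 174093. All 3 of these genes had at most 3 in each wild-type library.

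The wild-type libraries lay far apart at AT3G01345, another of the highest genes. This uncharacterized gene on chromosome 3 (129138 to 130749) stood at 4455 and 4193 in hda6, 0.0178 and 4.05 in esant12, and 97.1 and 1193 in wild type. The log2 difference between the mutants was 10.90.

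Some product families recurred among the 121, which make up 0.372% of the table. Beta-galactosidase words stood in the products of 5 of them, out of 31 such genes in the table. AT3G44265, beta-galactosidase-like, was at 1595 and 1612 in hda6 and 0 and 1.01 in esant12. AT4G29200 was at 262 and 376 in hda6 with no esant12 read, at least 106-fold higher. Of the 7 Ulp1 protease family genes in the table, whose products resemble proteases of the SUMO pathway, 4 were among the 121, and AT5G45570 stood at 375 and 343 in hda6 with no esant12 read. Close copies within these families can share 50-bp reads, so the split of reads between copies is uncertain. The words transcription repressor stood in 3 of the 121, out of 14 such genes in the table, and retrotransposon in 3, out of 35. Reverse transcriptase stood in 1 of the 121, out of 37 such genes, and transposase in 0, out of 20.

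Many of the 121 genes lay beside pseudogenes. An annotated pseudogene was the next gene for 51 of them (42.1%), against 8.11% of tested genes, 10.5% of the table and 15.2% of the 10198 genes under 5 in all 16 libraries. Within 50 kb, a median of 11.5% of annotated genes were pseudogenes, with a wide spread (quartiles 3.33% and 52.6%). The median was 2.86% over all tested genes and 3.45% over the genes under 5 in all 16 libraries. Products were annotated as uncharacterized for 34.7%, against 6.17% of tested genes and 13.9% of the genes under 5 throughout. Not protein coding were 19%, against 2.31% of tested genes, 15.7% of the table and 42.1% of the genes under 5 throughout. Among the 92 genes lower in hda6 by at least 2-fold, 19.6% were not protein coding and 14.1% lay beside a pseudogene. The 121 were found on all chromosomes, with 23, 23, 24, 22 and 29 on chromosomes 1 to 5. The table as a whole has 8656, 5174, 6435, 4921 and 7362 genes there. These shares were not tested.

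Genes known for ties to DNA methylation were among those higher in hda6. SDC, an F-box gene silenced through its promoter repeats, stood at 57.9 and 57.9 in hda6, 1.04 and 1.02 in esant12 and 0.995 and 0 in wild type. With 115 reads against 2, the ratio was 57.9 with a 95% exact counting interval of 15.7 to 484. It is one of the 121, so no test is given. QQS, a regulator of starch content known for natural differences in methylation, stood at 903 and 907 in hda6, 44.4 and 26.5 in esant12 and 210 and 222 in wild type. It was 25.5-fold higher in hda6 than in esant12 (adjusted p = 2.5e-06). Against wild type QQS was higher in hda6 (log2 difference 2.06, adjusted p = 0.0021) and lower in esant12 (-2.62, adjusted p = 0.00037).

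Of 10 tested genes listed as epigenetically variable, 2 were higher (QQS and SDC) and 3 lower in hda6. This count and those of the lists that follow stand beside 11.3% higher and 9.27% lower over all tested genes. The lower ones were PAI1, a tryptophan synthesis gene, TAP38, a thylakoid phosphatase gene, and DML1, better known as ROS1. PAI1 lost its call without hda6 replicate 1 (adjusted p = 0.07) and without esant12 replicate 1 (adjusted p = 0.12). Without either hda6 library SDC did not pass the filter and QQS was the higher member.

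Retrotransposon-like genes in the table added a few cases. AT2G41590, a non-LTR retrotransposon gene, was at 68 and 60.9 in hda6 and AT3G30820, a retrotransposon ORF-1 gene, at 45.8 and 64.9, and both had no read in esant12 or wild type. They were at least 21.3-fold and 18.3-fold higher. Of 66 genes with a transposon-related product 20 were tested, and 6 were higher and 2 lower in hda6. AT2G41590, AT3G30820, AT2G16676, AT2G02103 and AT4G04265, all at 0 in esant12 and wild type, passed the filter through hda6 and had to differ. Without hda6 replicate 1 or without hda6 replicate 2 those genes did not pass the filter. The other higher member, AT5G48050, passed and lost its call (adjusted p = 0.062 to 0.19 without 1 library), so 0 were higher. With DESeq2, 1 member was higher and 0 lower, and with a filter of 50 in 2 libraries 1 was higher.

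Genes of the DNA methylation and silencing machinery included 9 lower and 4 higher members. ROS1 (DML1, AT2G36490), a DNA glycosylase that removes methylated cytosine, stood at 667 and 562 in hda6, 1642 and 1692 in esant12 and 1072 and 1016 in wild type. The log2 difference was -1.44 ± 0.07 (adjusted p = 9.4e-09), with wild type between the mutants. IBM1, a histone H3K9 demethylase gene that keeps gene bodies free of non-CG methylation, stood at 243 and 268 in hda6 against 540 and 511 in esant12 and 484 and 502 in wild type. Its log2 difference was -1.04 ± 0.09 (adjusted p = 1.7e-06).

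That list had 39 tested genes and a median of -0.10, or -0.03 without hda6 replicate 2 and -0.06 without esant12 replicate 2. RDR6, an RNA-dependent RNA polymerase gene of small RNA silencing, stood at 338 and 324 against 551 and 530 in esant12 (log2 difference -0.70, adjusted p = 5.6e-06). The chromomethylase genes CMT2 and CMT3, whose enzymes methylate non-CG cytosines, differed by -0.51 and -0.48. Higher in hda6 were SUVH9, which helps to recruit RNA polymerase V (1001 and 912 against 645 and 633, adjusted p = 0.00014), AGO9, RDR2 and DMS11. AGO9, an Argonaute gene known from ovules, rested on 27 reads against 3, a ratio of 9.06 with an exact interval of 2.79 to 46.7, and lost its call without hda6 replicate 2 (adjusted p = 0.066). MET1, the CG maintenance methyltransferase gene, was not called, at 589 and 583 against 660 and 655. Without hda6 replicate 2, esant12 replicate 1 or esant12 replicate 2 the list had 6 lower calls, and 1 to 2 higher ones whichever of the 4 libraries was left out.

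**Figure D3:**
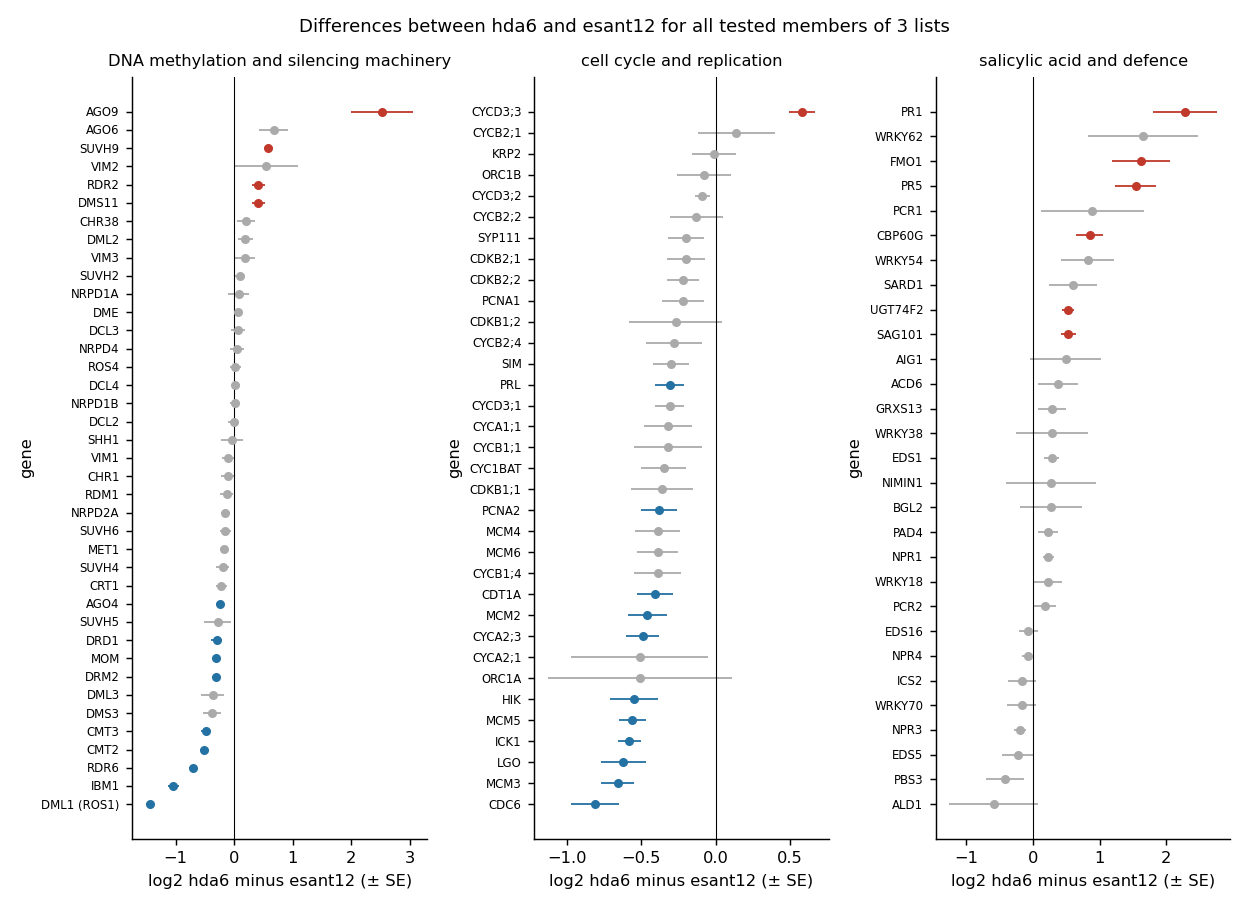
Log2 difference between hda6 and esant12, with its standard error, for every tested member of the lists DNA methylation and silencing machinery, cell cycle and replication, and salicylic acid and defence (red, called higher in hda6, blue, called lower, grey, not called). ROS1 at -1.44 and IBM1 at -1.04 stand at the lower end of the first panel, CYCD3;3 and CYCB2;1 are the members of the second above 0 and PR1 at 2.28 leads the third.

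AT2G03470 had the largest fall in hda6 against esant12. The gene (chromosome 2, 1045446 to 1047744), annotated as an ELM2 domain-containing protein, stood at 1061 and 1094 in hda6, 26779 and 25465 in esant12 and 763 and 734 in wild type. It was 24.2-fold lower in hda6 than in esant12 (log2 difference -4.60 ± 0.06, adjusted p = 4.8e-15). Against wild type it was higher in both mutants, by 0.53 in hda6 (adjusted p = 6.4e-05) and 5.12 in esant12 (adjusted p = 1e-15).

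No change of that size or direction was called at the tested genes on either side. PAP9 was higher in hda6 (189 and 193 against 94.4 and 120, adjusted p = 0.00039), and QUL2 was not called (184 and 187 against 241 and 189). The ELM2 domain is found in subunits of deacetylase complexes. The other genes with an ELM2 product, looked up after the value of AT2G03470 was seen, differed far less. AT1G13880 stood at 806 and 762 against 1506 and 1329 (log2 difference -0.85, adjusted p = 9.1e-07) and AT1G26580 at 1868 and 1773 against 2113 and 2074 (-0.20, adjusted p = 0.012). AT4G11400, with few reads, went the other way, at 20.3 and 17 against 10.3 and 7.13 (1.03, adjusted p = 0.03). Its call held in 6 of 11 other settings. AT2G46040 was not called (-0.34). AT1G26580 lost its call without hda6 replicate 2 (adjusted p = 0.12) and without esant12 replicate 1 (adjusted p = 0.081). Whether any of these genes is a locus mutated in esant12 was not tested.

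Among called genes with a mean of 50 or more and separated libraries, the next 9 by size of the fall had log2 differences from -2.85 to -1.48. PDF2.1, a defensin-like gene, stood at 9.18 and 21 in hda6, 128 and 88.5 in esant12 and 56.7 and 40 in wild type (log2 difference -2.85 ± 0.31, adjusted p = 2.7e-05). AT1G31040, a PLATZ transcription factor gene, stood at 12.2 and 17 against 68.4 and 76.2, with wild type at 34.8 and 39. For both genes hda6 was lower and esant12 higher than wild type.

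NGA2, a B3 transcription factor gene that shapes leaf margins and the style, was called lower than wild type in hda6. It stood at 58.9 and 71.9 in hda6, 202 and 166 in esant12 and 170 and 178 in wild type (log2 difference between the mutants -1.48 ± 0.14, adjusted p = 5.5e-06). Its difference from wild type was -1.40 in hda6 (adjusted p = 7.6e-06) and 0.07 in esant12 (adjusted p = 0.74). The remaining genes of the group were 2 long non-coding RNA genes (AT5G03395 and AT4G06115), AT4G13577, AT1G14250, AT5G14650 and AT3G16650.

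**Figure D4:**
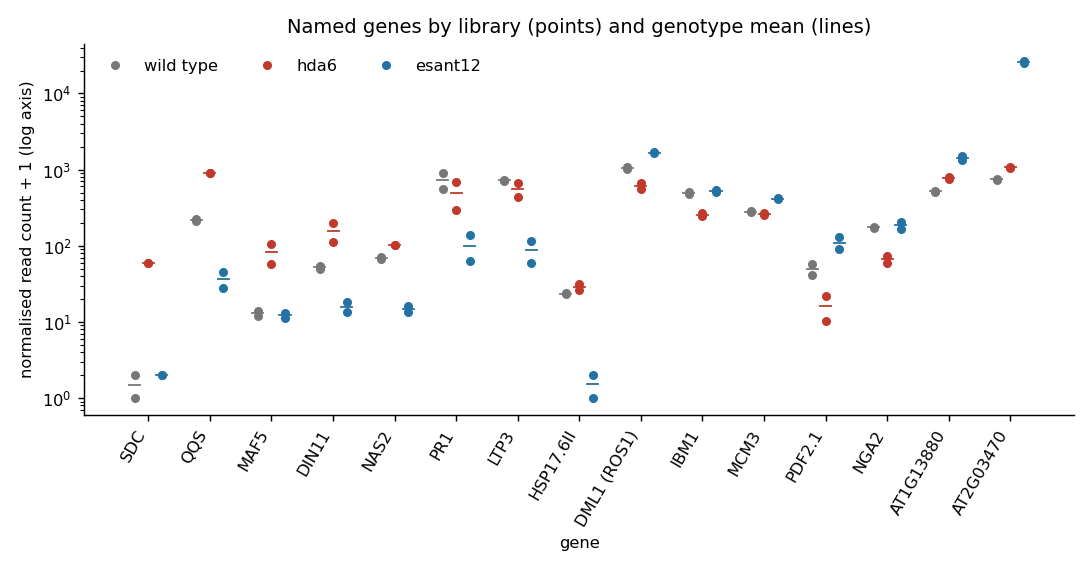
Normalised read count plus 1 (log axis) of named genes in each library of wild type (grey), hda6 (red) and esant12 (blue), with lines at the genotype means of 2 libraries. Of the 3 genotypes shown, SDC and MAF5 are highest in hda6 with the other two close together, PR1, LTP3 and HSP17.6II are lowest in esant12, QQS, DIN11 and ROS1 lie on opposite sides of wild type in the 2 mutants, and AT2G03470 is far higher in esant12.

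Histone deacetylase genes and complex subunits had 1 higher and 5 lower of 30 tested. HDA18, a deacetylase gene known for root epidermal patterning, was the higher member. It stood at 42.6 and 40.9 in hda6, 4.14 and 3.05 in esant12 and 10.9 and 17 in wild type. The log2 difference was 3.23 ± 0.35, and HDA18 is one of the 121 genes, so no test is given. The lower members (HDA05, SNL1, MSI1, MSI2 and FVE) had log2 differences from -0.35 to -0.20, and 0 to 2 of the list were lower without 1 library and 0 with DESeq2.

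FLC and its MAF relatives, listed with SVP, are MADS-box repressors of flowering, and of 6 tested 2 were higher and 3 lower. MAF4 stood at 93.4 and 91.8 in hda6, 14.9 ± 3.78 (SD, n = 2) in esant12 and 10.9 and 8.99 in wild type (log2 difference 2.58 ± 0.40, adjusted p = 0.00045). MAF5, next to it on chromosome 5, stood at 105 and 56.9 against 10.4 and 12.2 (2.68 ± 0.30, adjusted p = 3.4e-05). Both were higher than wild type in hda6 and not called against it in esant12. SVP, a repressor outside the FLC clade, MAF1 and AGL31 (MAF2) were lower in hda6, with log2 differences from -0.35 to -0.25, and MAF3, the gene beside MAF4, was not called (211 and 225 against 237 and 218). Without hda6 replicate 2, and without esant12 replicate 1, 1 of the 3 lower calls was left, and MAF1 had adjusted p = 0.068 and 0.15.

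The called defence genes tied to salicylic acid were higher in hda6 than in esant12. PR1, the classical marker of this pathway, stood at 680 and 297 in hda6, 137 and 61.2 in esant12 and 896 and 558 in wild type (log2 difference 2.28 ± 0.48, adjusted p = 0.0043). PR5 stood at 159 and 141 against 57.9 and 44.8, with wild type at 170 and 144 (1.54 ± 0.31, adjusted p = 0.0032). Of 29 tested members 6 were higher and 0 lower. Their median was 0.28, but -0.01 without esant12 replicate 2. Both genes were called lower than wild type in esant12 and not called against it in hda6, and PR1 lost its call between the mutants without esant12 replicate 2 (adjusted p = 0.054). The others called were FMO1, CBP60G, SAG101 and UGT74F2, and FMO1 lost its call whichever of the 4 libraries was left out (adjusted p = 0.055 to 0.1).

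Defensins and ethylene genes gave 9 higher and 2 lower of 28. PDF1.3 stood at 96.6 and 141 in hda6 and 4.16 and 6.09 in esant12, with wild type at 68.6 and 39 (log2 difference 4.28 ± 0.50, adjusted p = 4.3e-05). PDF1.2, PDF1.2b, PDF1.2c and PDF1.4 were also higher, but these close copies can share reads and are not separate evidence. PDF1.2 was at 34.8 and 150 in the 2 hda6 libraries and lost its call without hda6 replicate 2 (adjusted p = 0.061), where 3 of the list were higher, against 4 with DESeq2. ERF2, an ethylene response factor gene, was lower (541 and 622 against 1302 and 916, adjusted p = 0.0015), as was EBF1, an F-box gene that limits ethylene signalling.

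Of 31 tested jasmonate genes, 7 were lower (22.6%, against 9.27% of all tested genes) and 2 higher (6.45%, against 11.3%) in hda6, with a median of -0.22. The synthesis gene AOC2, an allene oxide cyclase, stood at 920 and 890 in hda6, 1449 and 1501 in esant12 and 1032 and 985 in wild type (log2 difference -0.70 ± 0.08, adjusted p = 3.2e-05). AOS, OPR3 and the repressor genes JAZ6, TIFY10B (JAZ2), JAZ3 and TIFY7 (JAZ9) were lower too. JAZ6 stood at 2452 and 2603 in hda6, 5533 and 4138 in esant12 and 3369 and 3572 in wild type (-0.92 ± 0.10, adjusted p = 2.5e-05). LOX3, a lipoxygenase gene, was higher (621 and 764 against 409 and 412, adjusted p = 0.0033), as was CYP94B3, which breaks jasmonate down and lost its call without hda6 replicate 2 (adjusted p = 0.31), esant12 replicate 1 (0.16) or esant12 replicate 2 (0.13).

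Abscisic acid and drought genes included large differences with the lowest level in esant12. LTP3, a lipid transfer protein gene, stood at 673 and 434 in hda6, 58.4 and 115 in esant12 and 717 and 722 in wild type (log2 difference 2.71 ± 0.45, adjusted p = 0.00079). RD20, a drought-induced caleosin gene, stood at 3700 and 2836 against 1400 and 1420, with wild type at 3918 and 4023 (adjusted p = 0.00022). Of 42 tested members 8 were higher (19%) and 4 lower (9.52%, near the 9.27% of all tested genes). The median was 0.06, but -0.01 without hda6 replicate 2. P5CS1, of proline synthesis, was lower (21160 and 18248 against 31861 and 29610, adjusted p = 0.0013). The higher and lower calls were 4 and 3 without hda6 replicate 1, 6 and 2 without hda6 replicate 2, 3 and 1 without esant12 replicate 1 and 4 and 2 without esant12 replicate 2. LTP4 lost its call without esant12 replicate 1 (adjusted p = 0.06).

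A few heat shock genes were higher in hda6 than in esant12. HSP17.6II, a small heat shock protein gene, stood at 25.4 and 30.9 in hda6, 1.03 and 0 in esant12 and 22.9 and 22 in wild type. It is one of the 121 genes, so no test is given. With 56 reads against 1, the ratio was 56.4 with an exact interval of 9.71 to 2266. HSP70 stood at 1889 and 1640 against 977 and 1034, with wild type at 2543 and 2822, so both mutants were lower than wild type. Of 15 tested members 4 were higher and 0 lower. Their median was 0.41, but 0.26 without hda6 replicate 2, 0.16 without esant12 replicate 2, 0.25 with edgeR or DESeq2 and 0.17 with a filter of 50 in 2 libraries.

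Genes of cell division and DNA replication had many members lower in hda6. Of 34 tested, 11 were lower and 1 higher (background 9.27% and 11.3%), and the median was -0.33, or -0.20 without hda6 replicate 2. MCM3, a subunit of the replicative helicase, stood at 268 and 256 in hda6, 408 and 423 in esant12 and 282 and 273 in wild type (log2 difference -0.66 ± 0.11, adjusted p = 0.00066). CDC6, which loads that helicase, stood at 72.1 and 61.9 against 110 and 126, with wild type at 57.7 and 57.9 (-0.81 ± 0.16, adjusted p = 0.0025). MCM2, MCM5, PRL (MCM7), PCNA2, CDT1A, the cyclin gene CYCA2;3, the kinesin gene HIK and the inhibitor genes ICK1 and LGO were lower too. CYCD3;3, a D-type cyclin gene, was higher (264 and 257 against 169 and 178, adjusted p = 0.00055). The lower calls fell to 5 without esant12 replicate 1, 6 without hda6 replicate 2, 7 without esant12 replicate 2 and 6 with DESeq2.

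Photosynthesis genes showed many small differences. Of 45 tested, 19 were lower and 1 higher in hda6, with a median of -0.19. LHCA1, a light-harvesting gene, stood at 77088 and 77910 in hda6, 101077 and 94234 in esant12 and 58986 and 59719 in wild type (log2 difference -0.33, adjusted p = 0.006), so both mutants were above wild type. PETE1, a plastocyanin gene, stood at 4382 and 4150 against 6167 and 5663, with wild type at 5390 and 4850 (-0.47 ± 0.07, adjusted p = 0.00025). RBCS1B, a Rubisco small subunit gene, was the higher one (11535 and 11036 against 7951 and 8457, adjusted p = 0.001). The count of lower members depended on the libraries, with 3 without esant12 replicate 1, 7 without hda6 replicate 2, 12 without hda6 replicate 1, 13 without esant12 replicate 2 and 21 with DESeq2. LHCA1 lost its call without esant12 replicate 1 (adjusted p = 0.073).

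**Figure D5:**
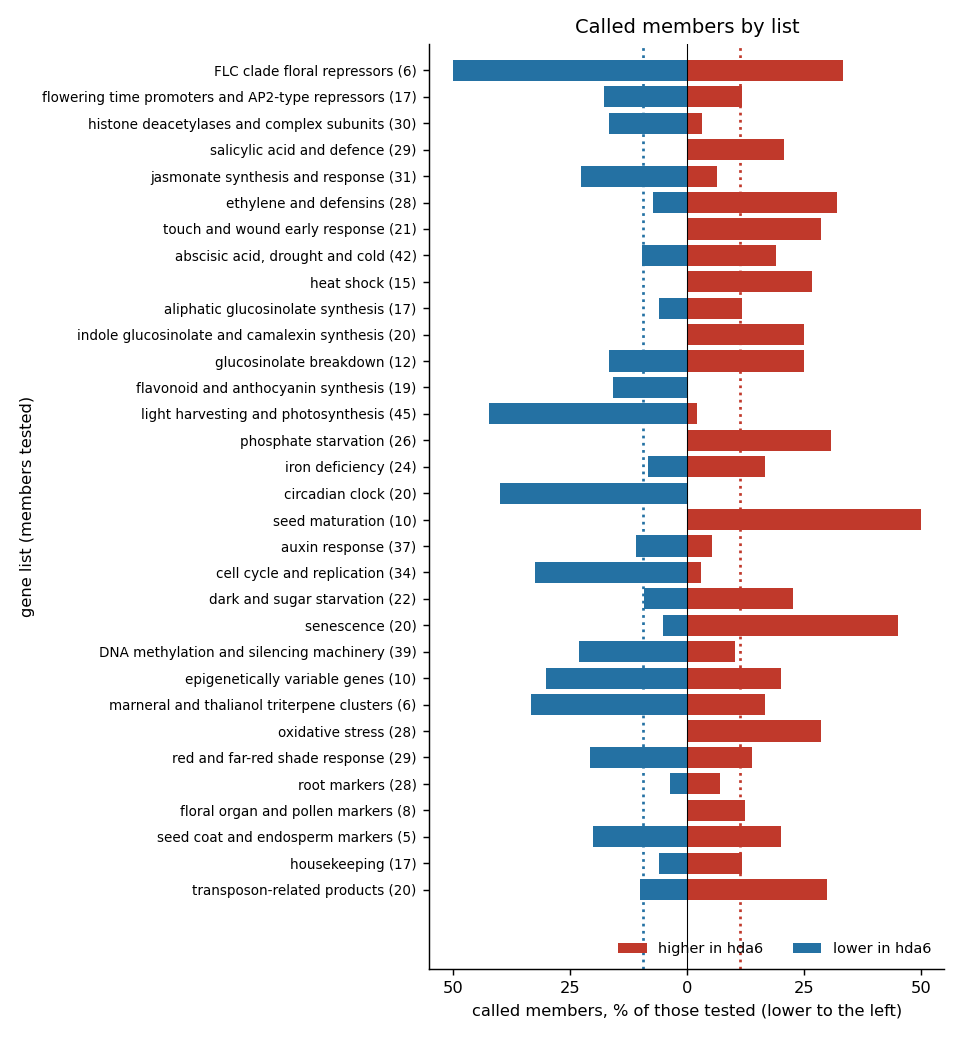
Share of the tested members of each gene list called higher (red, to the right) and lower (blue, to the left) in hda6 than in esant12, with the number tested in brackets and the shares over all genes, 11.3% and 9.27%, as dotted lines. Photosynthesis, clock and replication lists reach to the left, and senescence, phosphate starvation and the stress lists to the right.

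Clock genes had 8 lower and 0 higher of 20 tested, with a median of -0.17. RVE1, a morning-phased MYB gene linking the clock to auxin, stood at 1415 and 1326 in hda6, 2525 and 1979 in esant12 and 1836 and 1991 in wild type (log2 difference -0.71 ± 0.14, adjusted p = 0.0025). TCP11, which the list holds as CHE, a repressor of CCA1, stood at 835 and 829 against 1305 and 1172 (-0.57 ± 0.07, adjusted p = 3.6e-05). The time of day of harvest is not given in the labels. Without esant12 replicate 1, 3 members were lower and the median was -0.11.

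Light and shade genes had 4 higher (13.8%, against 11.3% of all tested genes) and 6 lower (20.7%, against 9.27%) of 29. ELIP2, an early light-induced protein gene, stood at 1363 and 820 in hda6, 164 and 215 in esant12 and 515 and 444 in wild type (log2 difference 2.49 ± 0.20, adjusted p = 1.1e-06). PIF4, a phytochrome-interacting factor gene that promotes elongation, stood at 2509 and 2550 against 3853 and 3743, with wild type at 2161 and 2198 (-0.59 ± 0.05, adjusted p = 2.6e-06). HFR1 and the photoreceptor gene CRY1 were also lower, and PIL1 higher (197 and 260 against 97.5 and 118, adjusted p = 0.0038). Higher members numbered 2 without hda6 replicate 1 and without esant12 replicate 2.

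Of 20 tested senescence genes 9 were higher and 1 lower, with a median of 0.38. XTH24, a cell wall enzyme gene, stood at 4379 and 4795 in hda6, 1769 and 2316 in esant12 and 3227 and 4494 in wild type (log2 difference 1.18 ± 0.16, adjusted p = 0.00017). PPH, a chlorophyll breakdown gene, stood at 1428 and 1402 against 985 and 1014 (0.50 ± 0.05, adjusted p = 1.5e-05). Higher members numbered 4 without hda6 replicate 2 and 5 without esant12 replicate 1, and 0 were lower whichever of the 4 libraries was left out.

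DIN11, a dioxygenase gene induced by darkness, stood at 111 and 199 in hda6, 12.5 and 17.3 in esant12 and 52.7 and 49 in wild type (log2 difference 3.25 ± 0.24, adjusted p = 4.6e-07). Of 22 tested genes of darkness and sugar starvation 5 were higher and 2 lower, and 2 were higher whichever of the 4 libraries was left out. Without hda6 replicate 2, 1 was lower. TPS8, a trehalose-phosphate synthase-like gene, was lower (5354 and 5160 against 9039 and 8074, adjusted p = 3e-05).

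Phosphate starvation genes had 8 higher and 0 lower of 26, with a median of 0.28. The phosphate transporter gene PHT1;5 stood at 157 and 196 in hda6, 49.9 and 70.1 in esant12 and 94.5 and 48.9 in wild type (log2 difference 1.55 ± 0.35, adjusted p = 0.0071), and lost its call without hda6 replicate 2 (adjusted p = 0.052) and without esant12 replicate 1 (adjusted p = 0.072). PHO1, which loads phosphate into the xylem, stood at 1720 and 1493 against 1057 and 1143 (0.54 ± 0.08, adjusted p = 0.00036). The higher calls numbered 4 without hda6 replicate 1, 3 without hda6 replicate 2, 2 without esant12 replicate 1 and 5 without esant12 replicate 2.

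Iron genes were led by NAS2, a nicotianamine synthase gene for metal transport. It stood at 103 and 103 in hda6, 12.5 and 15.2 in esant12 and 66.6 and 69.9 in wild type (log2 difference 2.81 ± 0.22, adjusted p = 9.6e-07). Of 24 tested iron genes 4 were higher (NAS1, NAS2, FER1 and FER4) and 2 lower (IRT2 and BTS). IRT1, the main iron uptake transporter gene, was not called. Without esant12 replicate 1, 1 member was higher and 1 lower, and without either hda6 library 1 was lower.

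Oxidative stress genes had 8 higher and 0 lower of 28. GSTF7, a glutathione transferase gene, stood at 1018 and 1189 in hda6, 388 and 578 in esant12 and 835 and 657 in wild type (log2 difference 1.21 ± 0.20, adjusted p = 0.00078), though its close copy GSTF6, also higher, can share its reads. FSD1, an iron superoxide dismutase gene, stood at 21020 and 22578 against 15900 and 16470 (0.43 ± 0.08, adjusted p = 0.0025). Without hda6 replicate 2, 4 members were higher, and without esant12 replicate 1 or 2 and with DESeq2, 5 were.

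Touch and wound genes had 6 higher and 0 lower of 21, but the 2 esant12 libraries differed for several of them. CML38, a calmodulin-like gene, stood at 262 and 444 in hda6 and 246 and 125 in esant12, so the groups lie close. TCH3, also of the calmodulin family, separated better, at 3962 and 4231 against 2810 and 2405 (log2 difference 0.66 ± 0.13, adjusted p = 0.0025). Higher calls numbered 2 without hda6 replicate 2 and 3 without esant12 replicate 2.

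Genes of glucosinolate breakdown were abundant and included a gene with opposite differences from wild type. ESM1, an epithiospecifier modifier gene that steers glucosinolate breakdown, stood at 26069 and 24678 in hda6, 11218 and 12103 in esant12 and 16065 and 16747 in wild type (log2 difference 1.12 ± 0.12, adjusted p = 1.7e-05). TGG2, a myrosinase gene, stood at 26412 and 24741 against 19370 and 18329. Of 12 tested genes of glucosinolate breakdown 3 were higher and 2 lower, and 1 was lower whichever of the 4 libraries was left out.

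Of 20 indole glucosinolate and camalexin genes 5 were higher and 0 lower in hda6. CYP81F2, which modifies indole glucosinolates, stood at 361 ± 44 (SD, n = 2) in hda6, 164 and 166 in esant12 and 99.4 and 89.9 in wild type (log2 difference 1.12 ± 0.15, adjusted p = 0.00012). IGMT1 and IGMT2, close copies of a methyltransferase gene, were also higher, with reads that may be shared between them. CYP71A12 lost its call without hda6 replicate 1 (adjusted p = 0.098) and without esant12 replicate 1 (adjusted p = 0.13).

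MRN1, the marneral synthase gene, was low in both mutants. It stood at 54.8 and 54.9 in hda6, 2.09 and 4.06 in esant12 and 231 and 366 in wild type (log2 difference between the mutants 3.82 ± 0.44). It was one of the 121 genes although wild type expressed it, so no test is given. In the thalianol cluster CYP708A2 and THAS1 were lower in hda6, and both lost their calls without hda6 replicate 2 (adjusted p = 0.073 and 0.28) and without esant12 replicate 1 (0.059 and 0.28).

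Flavonoid and anthocyanin genes had 3 lower (15.8%, against 9.27% of all tested genes) and 0 higher of 19, with a median of -0.45. DFR, a dihydroflavonol reductase gene, stood at 100 and 72.9 in hda6, 153 and 297 in esant12 and 151 and 70.9 in wild type, so hda6 lay within the wild-type range or near it. Its adjusted p of 0.033 rose to 0.053 without hda6 replicate 1, 0.17 without hda6 replicate 2 and 0.25 without esant12 replicate 2. Without either hda6 library 0 members were lower, and without esant12 replicate 2, 1 was lower and 1 higher.

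Seed maturation genes had 5 higher and 0 lower of the 10 tested, out of 25 in the table. M17, a late embryogenesis abundant protein gene, stood at 471 and 381 in hda6, 117 and 79.4 in esant12 and 68.5 and 175 in wild type (log2 difference 2.13 ± 0.40, adjusted p = 0.002). The storage protein gene CRA1 was not called and stood at 30.4 and 4.98 in hda6 and 1.3 and 55.7 in esant12. Higher calls numbered 2 without hda6 replicate 1, 1 without hda6 replicate 2, 3 without esant12 replicate 1 and 2 without esant12 replicate 2, and the part of seed transcripts in these calls was not tested.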

How the data were processed

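RNA was measured in 16 seedling libraries, and hda6 was compared with esant12. Per the submitters' processing notes, the authors used HISAT2 2.1.0 with TAIR10, featureCounts and edgeR. Options and strand setting are not given in the sources used here. The deposited signal values are normalised read counts that are not whole. Each of the 520768 values (100%) matched, within a relative tolerance of 1e-06, edgeR's library-size-adjusted value for a whole read count. A fit of 8 genotypes was made in R 4.3.3 by limma 3.58.1 with a trend, using log2 of each deposited value after adding 1, with Benjamini-Hochberg adjustment, for genes reaching 10 in 2 of 16 libraries. The contrast was hda6 minus esant12, with no block, and 8 residual degrees of freedom. edgeR 4.0.16 called 2459 genes higher and 1790 lower on the recovered reads. Planned raw-count tests gave way to limma because the values are normalised. Gene names, positions and sequences came from RefSeq TAIR10.1, in which all 32548 identifiers were found. Of 860 listed symbols 799 matched 1 gene. The genes named are HDA6, the 10 called genes with the largest differences each way among those with a mean of 50 or more and separated libraries, the 5 highest off-or-on genes, and, for every list, at most 2 called members each way. The text prints a selection and adds other list members chosen after their values were seen. Members and lists were chosen with earlier results of these data known. Where a genotype had 0 reads, 3 reads in each library were the floor. Counting error is all that intervals and floors cover. The fit was tested on simulated data. Columns not used numbered 0.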

Additional observations from a re-analysis of the deposited data

Results flagged for a closer look

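The named genes called against wild type in both mutants, in opposite directions, were looked at again. Both comparisons share the wild-type libraries. The log2 difference between the mutants (hda6 minus esant12) follows as a description. Genes called on opposite sides of wild type had to differ between the mutants, so nothing is read from that difference. Higher in hda6 and lower in esant12 than wild type were AT3G01345 (10.90), QQS (4.68), DIN11 (3.25), HDA18 (3.23), ELIP2 (2.49) and ESM1 (1.12). Lower in hda6 and higher in esant12 were PDF2.1 (-2.85), AT1G31040 (-2.25), AT4G13577 (-2.18), DML1, known as ROS1 (-1.44), JAZ6 (-0.92), IAA14, an auxin response repressor gene (-0.66), and PETE1 (-0.47). AT3G01345 rests on wild-type libraries at 97.1 and 1193.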

How the results depend on the processing

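The count of genes higher in hda6 moved from 2363 to 1395 with DESeq2 and to 1303 to 1600 without 1 library. The count of lower genes moved from 1933 to 852 with DESeq2 and to 773 to 1108 without 1 library. Genes higher by at least 2-fold moved from 824 to 451 with a filter of 50 in 2 libraries, and to 470 to 741 without 1 library. Genes lower by at least 2-fold moved from 92 to 41 with that filter, to 41 with DESeq2 and to 56 to 74 without 1 library. With off under 3 and on at least 10, limits chosen after the data were seen, 2 genes were off in hda6 and on in esant12, and 0 to 1 were without 1 library. No named gene turned in direction, and over all genes more were higher than lower in every setting. The larger count changed sides in some lists. With DESeq2 histone deacetylases and complex subunits had 1 higher and 0 lower, and the FLC list 2 higher and 1 lower. Medians of 4 described lists turned in direction without 1 library: salicylic acid (-0.01) and touch (-0.04) without esant12 replicate 2, and ethylene (-0.01) and abscisic acid (-0.01) without hda6 replicate 2. That of transposon-related products, 0.11, was -0.13 and -0.06 without hda6 replicate 1 and 2, -0.03 without esant12 replicate 1 and -0.12 with a filter of 50. The cause was not tested. Named genes lost the call in 146 of 1352 tests, 103 of them without 1 library and 21 with DESeq2, which concerned 44 of 115 genes. Same-numbered libraries of hda6 and esant12 showed little shared deviation (correlation 0.0128). Over other pairs of genotypes the value ran from -0.137 (esant12 with wild type) to 0.225 (arid14 with rxt3). Whether the replicate numbers mark a shared batch was not tested. With a replicate block 2492 genes were higher and 2061 lower, and 837 and 93 by at least 2-fold. Depth limits low genes: the 27 reads against 3 of AGO9 give a ratio between 2.79 and 46.7, counting error alone.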
